A study of Mus musculus with 4 samples.

Results

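Naive CD4+ T cells were examined in single-cell RNA profiles of blood T cells from mice carrying MC-38, a colorectal carcinoma line that grows in C57BL/6 mice. The cells were chosen by transcript detection: a kept cell had 200 to 2900 genes detected, and a member had at least 1 UMI (unique molecular identifier, 1 counted transcript) of Cd4, none of Cd8a, Cd8b1 or Foxp3, and at least 1 of Cd3d, Cd3e or Cd3g. A member also had at most 1 of 6 effector genes detected (Lgals1, S100a4, S100a6, Ccl5, Cd44, Cxcr3) and at least 1 of 4 naive genes (Ccr7, Lef1, Dapl1, Igfbp4). This gate held 479 of 5276 kept cells. The 4 libraries were taken on day 18 after tumor challenge from C57BL/6 mice that were untreated, had received the PD-L1-blocking antibody (anti-PD-L1, 150 µg on days 10, 13 and 17), had received the agonistic OX40 antibody (150 µg) with the TLR9 ligand CpG (25 µg) on day 7 (anti-OX40/CpG, labelled OX40), or had received both treatments (PDOX). All 4 groups carried the tumor, so no tumor-free reference was among them, and the age of the animals was not given in the labels. T cells were enriched from blood by magnetic depletion of other cells before capture. Each group was 1 library of 1 blood sample, so mouse, library and treatment cannot be told apart, and differences between libraries are given with counting error only and without a test.

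Naive CD4+ T cells leave the thymus, circulate between blood and lymphoid organs and have not yet met their antigen. They enter lymph nodes with the help of the chemokine receptor Ccr7, and stay quiescent under transcription factors such as Lef1, Tcf7, Klf2 and Foxp1. On activation they lose this program and gain adhesion, migration and effector genes, among them Id2, S100 family genes and integrins, while signals from interferons change a further set of genes in all T cells. They share most of this biology with naive CD8+ T cells and differ from them in lineage, the helper lineage using Cd40lg to engage B cells and dendritic cells and the cytotoxic lineage keeping Runx3 and granule genes in reserve.

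The untreated library gave 81 naive CD4+ T cells, the anti-PD-L1 library 161, the anti-OX40/CpG library 139 and the PDOX library 98, and 4 values in a row follow this library order. Levels are UMIs per 10000 UMIs of the subset, leaving out ribosomal protein, mitochondrial and hemoglobin genes, and brackets hold exact 95% Poisson intervals. The members rested on 123055, 253721, 221073 and 142539 such UMIs. Of all deposited barcodes, 16 occurred in more than 1 library, and none of them was a member in 2 libraries.

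By the genes that chose them, the members were mostly cells with several naive genes detected: 112 had 1 of the 4 naive genes, 137 had 2, 157 had 3 and 73 had all 4. Lef1 was found in 384 of them (80.2%), Ccr7 in 281 (58.7%), Igfbp4 in 280 (58.5%) and Dapl1 in 204 (42.6%). Among 133 B cells of the same libraries, which should lack T cell transcripts, the shares were 6.02% for Lef1, 2.26% for Igfbp4, 1.5% for Dapl1 and 3.01% for Cd4, while Ccr7, which B cells also use, was found in 37.6%. The level of Igfbp4 was 11.6 [10.8 to 12.4] in the members of all libraries and that of Lef1 11.8 [11.1 to 12.6]. None of the 6 effector genes was detected in 265 members, and 1 was detected in 214, most often Lgals1 (126 cells, 26.3%, against 12.8% of B cells). Ccl5 was found in 50 members (10.4%), by library in 2.47%, 6.83%, 18% and 12.2%, against 12.0% of B cells. After thinning each cell to 750 UMIs it was found in 5.69% of members and 4.84% of B cells. Median depth was 1390 to 1616 UMIs in the members and 1158 to 1346 in the B cells of the 4 libraries.

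The label was checked against markers the rule did not use. All 10 further naive T cell markers (among them Tcf7, Satb1, S1pr1, Klf2, Il7r, Actn1, Bach2, Foxp1 and Txk) had UMIs in the members of every library. Together they made up 72.6, 56.8, 65.0 and 62.6 UMIs per 10000, against 61.0, 49.7, 49.3 and 40.1 in the other T cells. Naive CD8+ T cells had 72.5, 57.8, 60.3 and 61.9, so the sum did not set the members apart from them. Over all libraries it was 63.0 in the members and 42.1 in B cells. Their sum thus set the members apart from B cells less than the helper genes did. All 11 helper lineage genes had UMIs in every library too, at a summed level of 15.6 to 18.2. Over all libraries this sum was 1.52 in B cells, 7.85 in naive CD8+ T cells and 12.8 in the other T cells. It was higher, at 21.5, in effector/memory CD4+ T cells (2 or more effector genes). The 11 genes of the CD8 and cytotoxic lineage summed to 3.44 to 3.74 in the members. Markers of other cells were low: the 8 B cell markers in the files summed to 0.407 to 3.09, the 9 NK markers to 0.724 to 1.54, the 5 platelet markers to 0.118 to 0.351, the 6 erythroid markers to 1.26 to 5.93, and the 10 myeloid markers to 6.09 to 7.80. Of defining genes, Cd79a was seen in 15 members, Ms4a1 in 4, Cd79b in 1, Tyrobp in 6, Ppbp in 10 and Pf4 in 2. The 1 gamma-delta marker in the files, Sox13, was seen in none (level 0 [0 to 0.0498]). Pdcd1 was found in only 4 of 479 members (0.835%), Ctla4 in 8 (1.67%) and Tnfrsf4, which encodes OX40, in 13 (2.71%). The whole list of 14 activation and checkpoint genes summed to 5.63 in the members of all libraries and 5.73 in naive CD8+ T cells. Xist was found in 57.8% to 65.5% of the members of each library and none of 4 Y-linked genes in any.

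Some members carried transcripts of other lineages. At least 1 UMI of 8 such genes was found in 178 of 479 members (37.2%), and the shares by library were 53.1%, 43.5%, 23.7% and 32.7%. These were mainly Lyz2, a lysozyme of myeloid cells, in 80 members, and Cst3, a protease inhibitor made by many cell types, in 91. One member stood apart: an anti-PD-L1 cell with 7101 UMIs held 538 of the 611 Gsto1 UMIs of all members, 186 of the 343 S100a11 UMIs, all 89 of Csta1 and 98 of the 506 Ly6a UMIs, beside 1 UMI each of Cd4, Cd3g and Lef1. It is 1 of 23 kept cells with 20 or more Gsto1 UMIs, and the ratios between libraries that it moves most are given with and without it.

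Naive cells made up most of the conventional CD4+ T cells (Cd4 found, Cd8a, Cd8b1 and Foxp3 not found) in the untreated and anti-PD-L1 libraries, and a smaller share where anti-OX40/CpG had been given, alone or in PDOX. The share was 81.8% [72.8 to 88.9, exact Clopper-Pearson] or 81 of 99 cells in the untreated library and 83.0% [76.9 to 88.0] or 161 of 194 in the anti-PD-L1 library. It was 54.3% [48.0 to 60.5] or 139 of 256 in the anti-OX40/CpG library and 34.3% [28.8 to 40.1] or 98 of 286 in the PDOX library. The first pair overlapped in their intervals, and both were above the other two libraries, of which PDOX was the lower. Over all T cells the range was narrower: members were 11.6%, 12.2%, 9.39% and 7.31% of the 697, 1317, 1481 and 1340 T cells, while naive CD8+ T cells were 36.3%, 36.4%, 25.2% and 12.0%. After every cell was thinned to 750 UMIs, the share among conventional CD4+ T cells was 81.5%, 79.8%, 54.8% and 31.1%. Of all T cells, however, the members then made up only 7.69%, 6.77%, 5.46% and 4.51%, and naive CD8+ T cells 32.9%, 32.9%, 25.4% and 11.5%. A member needs a UMI of Cd4, whereas a naive CD8+ T cell needs one of either Cd8a or Cd8b1. The share of members among all T cells thus depends on depth, and its size beside naive CD8+ T cells is not a ratio of the 2 lineages. The level of the share depends on the gate, since a stricter gate (0 effector genes and at least 2 naive genes) gave 42.4%, 32.5%, 18.8% and 13.6%. PDOX was the lowest under each of these settings, and the untreated and anti-PD-L1 libraries the highest. A lower share of naive cells and a higher number of effector cells cannot be told apart here, and 12, 26, 110 and 177 effector/memory CD4+ T cells (2 or more effector genes) stood beside the members.

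**Figure D1:**
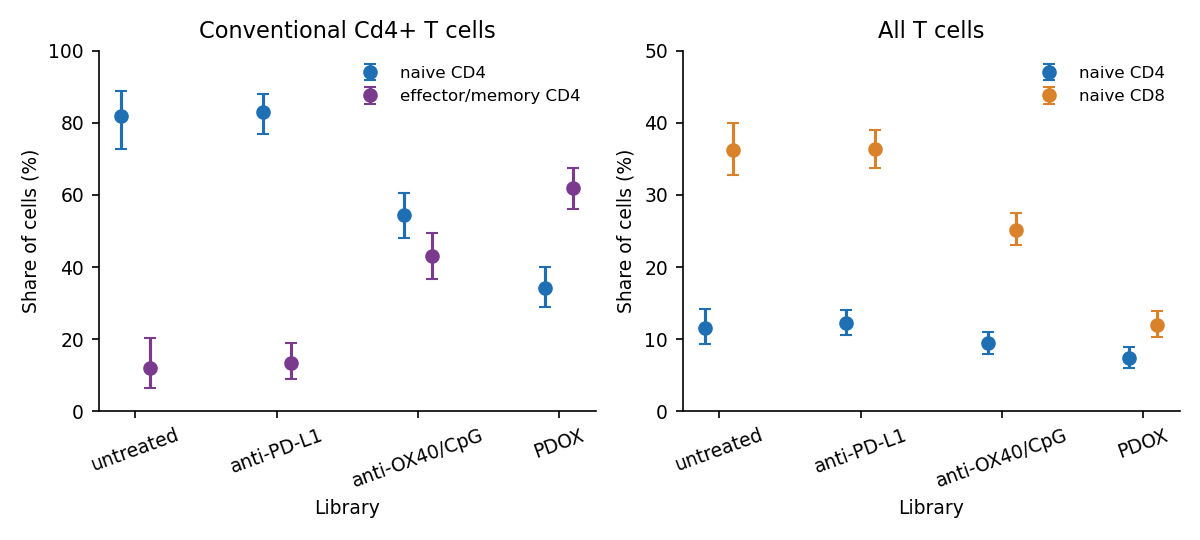
Share of cells in percent (y axis) by library (x axis) among conventional CD4+ T cells (left, naive and effector/memory) and all T cells (right, naive CD4+ and naive CD8+), with exact 95% binomial intervals as bars. Naive CD4+ T cells were 81.8% of conventional CD4+ T cells in the untreated library and 34.3% in PDOX, and 11.6% and 7.31% of all T cells, where naive CD8+ T cells were 36.3% and 12.0%. The shares of all T cells depend on detection of Cd4, or of Cd8a or Cd8b1.

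Against naive CD8+ T cells, chosen by the same gate with Cd8a or Cd8b1 in place of Cd4, helper genes were higher and cytotoxic genes lower in the members, and differences in naive markers were small in size. UMIs were summed per library and subset and fitted with edgeR's quasi-likelihood test with the library as a block, leaving out the 17 genes of the rule, and genes with a Benjamini-Hochberg adjusted p under 0.05 over all genes tested are called changed. Of 3881 genes, 379 changed (9.77%), 181 of them higher in naive CD4+ T cells (4.66%) and 198 lower (5.10%). Because the 4 libraries differ in treatment, the test asks whether a difference between subsets holds over the treatments.

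Helper genes were higher. Of the 11 genes of the helper list, 8 were tested, 5 rose, none fell and 3 did not pass the test, with a median log2 fold change of 0.89 against 0.00 over all genes. Cd40lg (GRCm38.p6 chrX:57212143-57224042), the ligand by which helper cells activate B cells, had 0.731, 0.749, 0.679 and 0.561 UMIs per 10000 in naive CD4+ T cells, and 0.0247, 0.118, 0.0643 and 0.0794 in naive CD8+ T cells. The groups did not overlap, and the log2 difference was 3.04 ± 0.38 (SE, adjusted p = 3.2e-09). Izumo1r, a folate receptor family member of CD4+ T cells, was 1.53 ± 0.17 log2 higher (adjusted p = 1.2e-10). Cd5, a negative regulator of T cell receptor signals, was 1.34 ± 0.15 higher (adjusted p = 1e-10) and the costimulatory receptor Cd28 1.08 ± 0.11 higher (adjusted p = 3.7e-12). Cd6, related to Cd5, was 0.70 ± 0.13 higher (adjusted p = 9e-05), a call that DESeq2 did not make.

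The largest increase after Cd40lg was in Ly6c1 (chr15:75044018-75048920), a GPI-anchored surface protein of the Ly6 family. Its levels were 2.03, 2.68, 2.62 and 3.16 in naive CD4+ T cells against 0.346, 0.436, 0.354 and 0.0794 in naive CD8+ T cells, a log2 difference of 2.85 ± 0.19 (adjusted p = 2.1e-19). Its neighbour Ly6c2 (chr15:75108161-75112066) ran the other way, with 0, 0.118, 0.362 and 0.0702 in naive CD4+ T cells against 5.78, 7.56, 7.96 and 8.73, a log2 difference of -5.57 ± 0.20 (adjusted p = 5.4e-33). The pair is close in sequence, so short 3′ reads could be split between them. Ly6a (Sca-1, chr15:74994877-74998031), another member of the family, was 1.53 ± 0.10 higher (adjusted p = 1.9e-19), with 1.87, 9.46, 5.52 and 8.49 against 0.643, 3.13, 1.69 and 3.26, and was called also without cells rich in Gsto1 (log2 1.34), where the anti-PD-L1 level of naive CD4+ T cells was 5.76. Thus the 3 Ly6 genes each separated the naive subsets within every library, 2 of them toward CD4 and 1 toward CD8.

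The other genes of the 10 largest increases were Pdlim4, a cytoskeletal adaptor (2.68 ± 0.27), the sialyltransferase St8sia6 (2.39 ± 0.31), Nxpe3 (1.83 ± 0.29), the calcium-binding Tesc (1.78 ± 0.18), the membrane protein Itm2a (1.77 ± 0.24), Psen2, a subunit of gamma-secretase (1.74 ± 0.32), and the tetraspanin Tspan32 (1.59 ± 0.12). Pdlim4 was at 0.975 to 1.82 in naive CD4+ T cells of the 4 libraries and at 0.113 to 0.236 in naive CD8+ T cells. Tspan32 was at 3.74 to 6.17 against 1.36 to 2.1. The ranges did not overlap for either gene.

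The genes of the CD8 and cytotoxic list were lower throughout: 8 of 11 were tested and all 8 fell, with a median log2 fold change of -3.21. Nkg7 (chr7:43437138-43438246), a granule protein of cytotoxic lymphocytes, had 0.0813, 0.631, 0.859 and 0.561 UMIs per 10000 in naive CD4+ T cells against 11.8, 12.5, 12.9 and 17.2 in naive CD8+ T cells (log2 -4.53 ± 0.13, adjusted p = 1.6e-37). Runx3, the transcription factor of the CD8 lineage, was 1.77 lower on the log2 scale (-1.77 ± 0.20, adjusted p = 1.5e-10). The inhibitor of cathepsins Cst7 (-3.68), the NK receptor subunit Klrd1 (-2.73) and the protease Ctsw (-1.82) were lower too. Il2rb, the shared beta chain of the IL-2 and IL-15 receptors, was lower by -1.64 ± 0.33 in edgeR (adjusted p = 0.00018) and was not called by DESeq2.

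Several of the 10 largest decreases rested on almost no UMIs in the members. Lcn4 had 2 UMIs in naive CD4+ T cells and 364 in naive CD8+ T cells, a ratio of 63.4 [17.4 to 525] after depth. Itgae, the integrin chain CD103, had 2 against 137, a ratio of 23.9 [6.48 to 199], Racgap1 had 1 against 121, and Adgrg5 had 3 against 119. Gm43698 had none against 255, which puts it at least 29.6-fold lower from a floor of 3 counts over all members. Plac8 (-4.05 ± 0.18) and the gut-homing chemokine receptor Ccr9 (-3.78 ± 0.37) were measured in both. All of these were lower in 4 of 4 libraries.

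**Figure D2:**
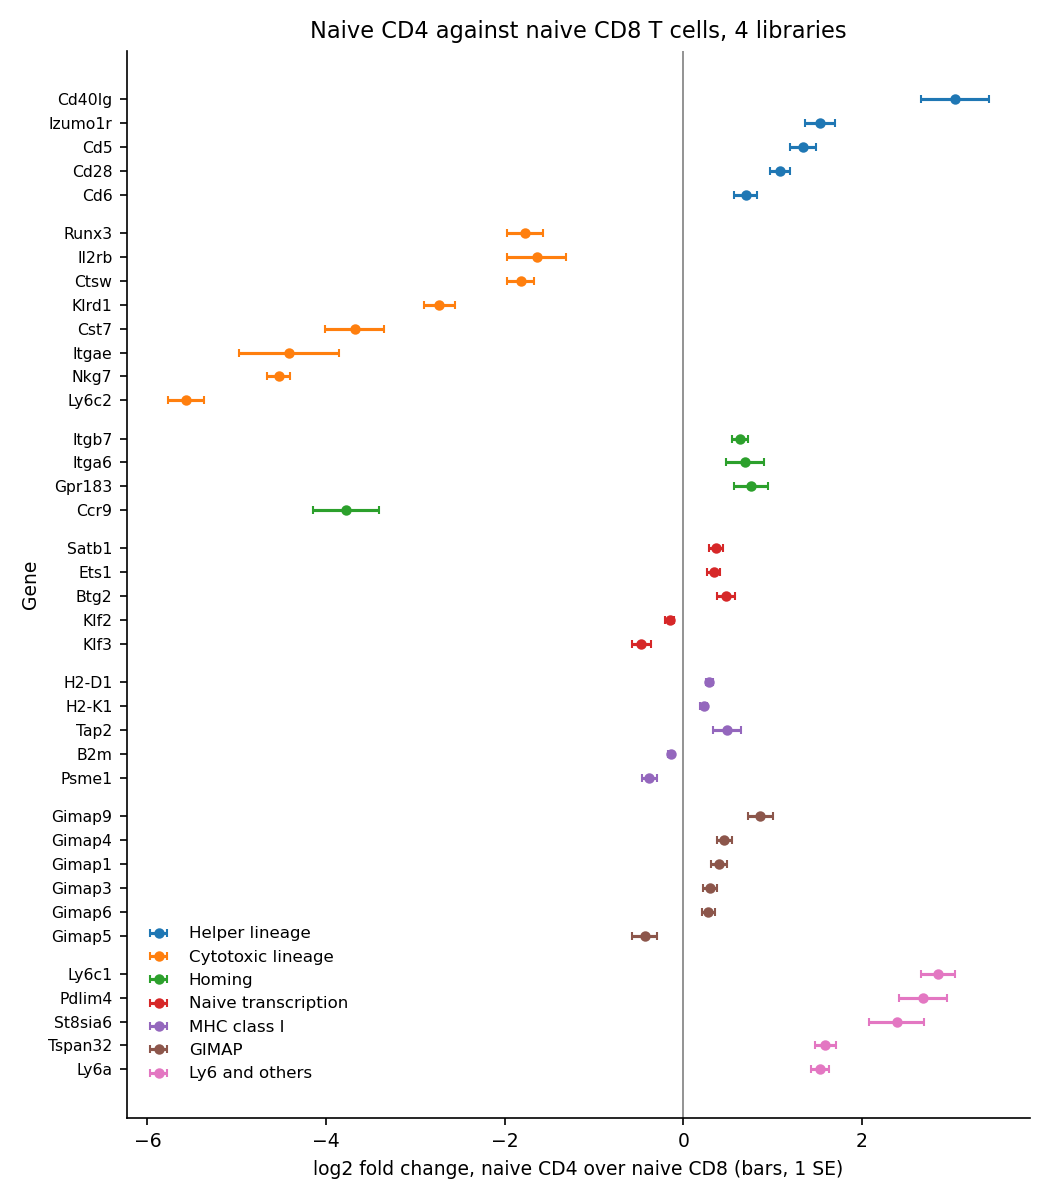
Log2 fold change of naive CD4+ over naive CD8+ T cells with its standard error (x axis) for genes of the lineage, homing, transcription, class I, GIMAP and Ly6 groups (y axis, colored by group), fitted over 4 libraries, with Itgae resting on 2 UMIs in the members. Cd40lg at 3.04 and Ly6c1 at 2.85 lie farthest toward CD4, and Nkg7 at -4.53 and Ly6c2 at -5.57 lie far toward CD8.

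Naive markers differed little in size. Of 10 further naive markers, 1 rose, 2 fell and 7 did not pass the test, with a median of 0.07. Foxp1 was at 4.79 in naive CD4+ and 4.77 in naive CD8+ T cells of all libraries (log2 -0.04 ± 0.09, adjusted p = 0.86), and Il7r at 5.08 and 5.65 (-0.21 ± 0.09, adjusted p = 0.146). The chromatin organizer Satb1 was 0.37 ± 0.08 higher (adjusted p = 0.0009) and not called without the anti-OX40/CpG library, by DESeq2 or without the library term. Klf2, which drives S1pr1, was lower by -0.15 ± 0.05 (adjusted p = 0.0373), and that call was lost without the untreated, the anti-PD-L1 or the anti-OX40/CpG library. Of 14 quiescence genes tested, 4 rose and 2 fell with a median of 0.14. These differences are small beside those of the lineage genes.

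The remaining lists held changes in both directions. Among 6 tested lymphoid homing genes 3 rose and 1 fell, with the integrin chain Itgb7 higher by 0.63 ± 0.09 (adjusted p = 3.9e-07) and Ccr9 the gene that fell. Among 5 inflammatory homing genes 2 rose and 2 fell, among 15 cytokine receptor and survival genes 2 rose and 2 fell, and among 11 effector and memory genes 4 rose and 1 fell. Of 9 T cell receptor signalling genes 2 rose and 1 fell, the latter being the phosphatase Ptpn22 (-0.86 ± 0.16, adjusted p = 4.6e-05). Of 8 GIMAP genes, GTPases of lymphocyte survival, 5 rose and 1 fell, with Gimap9 higher by 0.86 ± 0.14 and Gimap4 by 0.46 ± 0.08, whereas the calls of Gimap1, Gimap3, Gimap5 and Gimap6 were lost in DESeq2. Of 28 interferon-stimulated genes 5 rose and none fell, with a median of 0.11. Of 14 class I presentation genes 3 rose and 2 fell: H2-D1 was higher by 0.29 ± 0.04 and H2-K1 by 0.23 ± 0.04, while B2m, their shared light chain, was lower by -0.14 ± 0.03. H2-K1 and H2-D1 are alike in sequence, and all 3 calls were lost without the library term. Of 13 immediate early genes 3 rose and 3 fell. Of 4 activation genes 1 rose and 1 fell, of 4 cell cycle genes 1 rose and none fell, and of 4 regulatory T cell genes 2 rose and none fell.

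Against effector/memory CD4+ T cells, which met the same Cd4, Cd8, Foxp3 and Cd3 criteria but had 2 or more of the 6 effector genes detected and needed no naive gene, naive markers were higher in the members and effector and memory genes lower. The 2 groups were thus separated by effector genes and by the naive gene that only the members had to have, and genes that are found in the same cells as these move along with them, so the values describe both sides of that boundary. Of 3054 genes, 276 changed (9.04%), 142 higher in naive cells (4.65%) and 134 lower (4.39%). The untreated effector/memory group held only 12 cells and the anti-PD-L1 group 26, and the count rested on the anti-OX40/CpG library, without which 56 genes were called, and on PDOX, without which 134 were.

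Of the 10 further naive markers, 7 rose, none fell and 3 did not pass, with a median log2 fold change of 1.02 against 0.01 over all genes. Satb1 (chr17:51736187-51833290) was at 7.07, 6.62, 6.74 and 6.52 UMIs per 10000 in naive cells and at 2.28, 2.29, 2.43 and 1.72 in effector/memory cells (log2 1.67 ± 0.18, adjusted p = 1.9e-06), without overlap and with little spread among the naive groups. Actn1, an actin crosslinker, was higher by 1.84 ± 0.27 (adjusted p = 9.2e-05) and Foxp1 by 1.14 ± 0.19 (adjusted p = 0.00037). Tcf7, a transcription factor of naive and stem-like T cells, was higher by 0.90 ± 0.17 (adjusted p = 0.0015), but not called without the anti-OX40/CpG library. Bach2, which restrains effector genes, was higher by 1.95 ± 0.43 (adjusted p = 0.00463), a call lost without the anti-OX40/CpG or the PDOX library. S1pr1, the exit receptor of lymph nodes, was at 4.59 against 2.90 (adjusted p = 0.0585) and Il7r at 5.08 against 3.99 (adjusted p = 0.111).

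Other genes higher in naive cells were the receptor Treml2 (2.96 ± 0.45), the sodium pump subunit Atp1b1 (2.79 ± 0.39), Als2cl (2.50), Ly6c1 (2.45 ± 0.34), St8sia6 (2.24), Pdlim4 (2.21 ± 0.39), Kif1b (2.12), the IL-4 receptor chain Il4ra (2.02) and the phosphodiesterase Pde4b (1.96). Ly6c1, Pdlim4 and St8sia6 were also among the 10 largest increases over naive CD8+ T cells. The calls of St8sia6 and Il4ra were lost without PDOX, and those of St8sia6 and Pde4b without anti-OX40/CpG. Bcl2, a survival factor, was higher by 1.38 ± 0.18 (adjusted p = 3.6e-05). Of 13 cytokine receptor and survival genes tested 4 rose and 2 fell, and of 13 quiescence genes 5 rose and none fell.

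Effector and memory genes outside the rule were lower: of 13 tested 11 fell, none rose and 2 did not pass, with a median of -1.86. Id2 (chr12:25093799-25096092), a transcriptional regulator of effector differentiation, was at 0.975, 2.01, 1.67 and 1.68 in naive cells against 3.25, 3.70, 14.0 and 23.5 in effector/memory cells (log2 -2.62 ± 0.31, adjusted p = 7.2e-06). The naive groups stayed in a narrow range, and the effector/memory groups of the anti-OX40/CpG and PDOX libraries were well above those of the other libraries. Nkg7 followed the same order, with 0.0813, 0.631, 0.859 and 0.561 against 3.25, 6.70, 14.6 and 35.2 (log2 -4.48 ± 0.29). Crip1 was at 10.8 to 16.6 against 31.5 to 49.0 (-1.67 ± 0.15), the intermediate filament Vim at 3.66 to 5.26 against 11.7 to 20.8 (-1.73 ± 0.18), and the integrin chain Itgb1 at 0 to 1.75 against 1.63 to 10.9 (-2.99 ± 0.25), where only the untreated effector/memory group overlapped the naive range. S100a11 was lower by -2.07 (-2.74 without cells rich in Gsto1), a call lost without the anti-OX40/CpG library. Ly6a, in the same list, was at 6.83, the cell rich in Gsto1 included, against 11 and did not pass (log2 -0.51 ± 0.18, adjusted p = 0.0808).

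The 10 largest decreases were led by the chemokine receptor Ccr2 (-5.11 ± 0.38), the NK receptor Klrk1 (-4.73 ± 0.44) and Nkg7, followed by Lgals3 (-4.18 ± 0.56), Gna15 (-4.06), Anxa2 (-3.42 ± 0.42), Ahnak (-3.12 ± 0.29), Nebl (-3.00), Itgb1 and Fosb (-2.87 ± 0.42). Of 5 inflammatory homing genes 3 fell, of 5 CD8 and cytotoxic genes 4 fell, and of 9 helper genes 2 fell, Gata3 (-1.35) and Icos (-1.44). The helper call of Gata3 was lost without the anti-OX40/CpG library. Of 4 regulatory T cell genes 3 fell, among them Ikzf2 (-2.11 ± 0.35), although cells with Foxp3 were left out of both groups. Of 3 cell cycle genes 2 fell, with Hmgb2 at 3.11 to 4.14 against 4.88 to 18.7. Of 14 immediate early genes 3 rose and 2 fell, of 25 interferon-stimulated genes 3 rose and 1 fell, and of 14 class I presentation genes none rose or fell. Of 9 T cell receptor signalling genes 1 rose and 1 fell, of 4 activation genes 2 fell, of 5 lymphoid homing genes 1 rose, and of 8 GIMAP genes 1 rose and 1 fell.

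Transcripts of other lineages moved with this comparison. In the 12 untreated effector/memory cells the B cell markers summed to 89.4 UMIs per 10000 against 3.09 in untreated naive cells, the NK markers to 37.1 against 1.54 and the myeloid markers to 309 against 6.09. In PDOX the NK markers summed to 14.7 in effector/memory and 1.12 in naive cells. Of 3 myeloid markers tested 2 fell: Lyz2 was at 3.01, 1.66, 0.181 and 0.561 in naive cells and at 216, 1.06, 0.221 and 0.410 in effector/memory cells, so the difference of -3.36 ± 0.89 (adjusted p = 0.0182) rested on the 12 untreated effector/memory cells, and without that library it was 0.43 (adjusted p = 0.549). Cst3 and the class II chaperone Cd74 were likewise high there, Cd74 at 57.2 against 1.63 in untreated naive cells. Lgals3 (21.8 in untreated effector/memory cells) and Anxa2 (11.4) were highest in the same 12 cells and were called also without them. The part of these transcripts in the other decreases was not tested.

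Around the limit of the gate, cells with 1 effector gene lay nearer to those with 0 than to those with 3 or more for the genes given here. Cells just outside it mostly lay in between. Among conventional CD4+ T cells, 283 had 0 effector genes, 225 had 1 (leaving out 2 cells rich in Gsto1), 65 had 2, 80 had 3 and 180 had 4 or more, and a naive gene was found in 265, 213, 49, 37 and 72 of them. Over these classes Id2 was at 1.47, 1.83, 3.92, 15.1 and 22.3 and S100a10 at 6.96, 9.31, 18.7, 40.2 and 48.6. S100a10 was thus already higher with 1 effector gene, at 9.31 [8.35 to 10.4] against 6.96 [6.17 to 7.83] with 0. So were Crip1 (16.3 [15.1 to 17.7] against 11.9 [10.9 to 13.1]) and S100a11 (3.09 [2.55 to 3.72] against 1.79 [1.40 to 2.25]). The intervals of Id2, Vim and Itgb1 overlapped between these classes. Satb1 was at 7.18, 6.16, 4.39, 1.92 and 1.47 and Actn1 at 3.56, 3.18, 2.24, 1.19 and 0.569. Tcf7 did not follow this even course, with 7.26, 7.39 and 7.28 up to 2 effector genes and 2.66 and 2.80 beyond. Klf2 stayed between 16.4 and 21.1. Median depth was 1408, 1634, 1739, 1865 and 2178 UMIs, so depth rose with the number of effector genes detected, and its part in these values was not tested. The classes drew on the libraries unequally, 117 of the 180 cells with 4 or more effector genes being from PDOX.

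**Figure D3:**
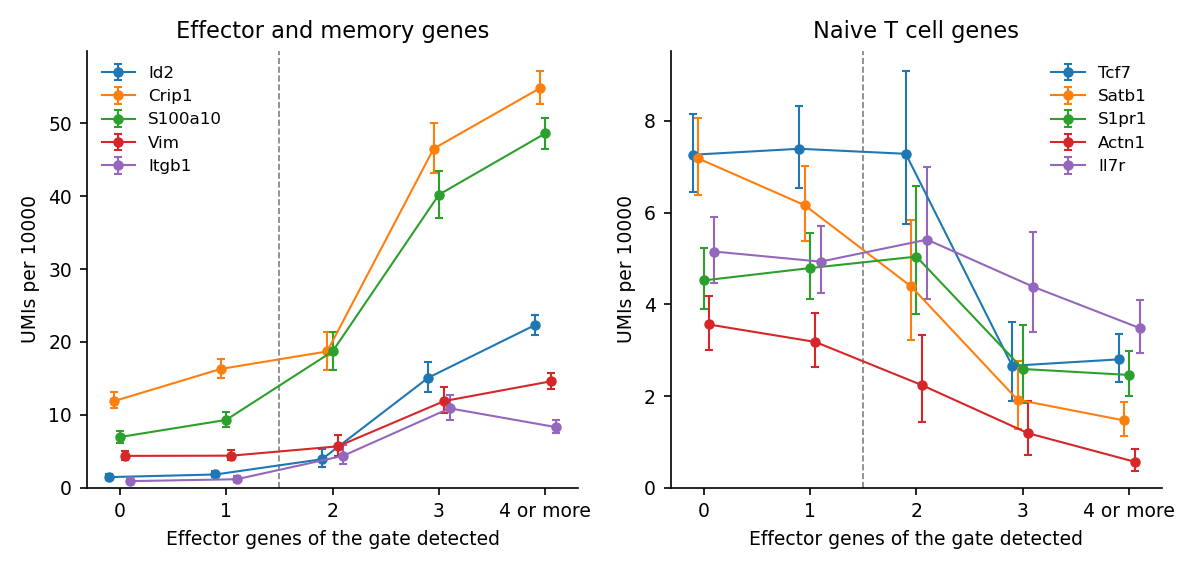
Level in UMIs per 10000 (y axis) against the number of effector genes of the gate detected (x axis) in conventional CD4+ T cells of all libraries without cells rich in Gsto1, with exact 95% Poisson intervals and the limit of the gate as a dashed line. Id2 is at 1.47 and 1.83 inside the gate and at 22.3 with 4 or more effector genes, and Satb1 goes from 7.18 to 1.47.

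Against all other T cells of the same libraries, 383 of 6644 genes changed (5.76%), 127 higher in naive CD4+ T cells (1.91%) and 256 lower (3.85%). The reference mixes naive CD8+ and effector cells in proportions that differ between libraries. The 5 largest increases were Pdlim4 (1.81 ± 0.21), Cd200r3 (1.72 ± 0.44), Ly6c1 (1.67 ± 0.15), the microRNA-processing enzyme Drosha (1.58 ± 0.33) and St8sia6 (1.53 ± 0.25), and the call of Cd200r3 was lost without the anti-OX40/CpG or the PDOX library. The 5 largest decreases had no UMI in any member: the chemokines Ccl4 and Xcl1 were at least 25.6-fold and 5.14-fold lower from a floor of 3 counts over all members, the terminal effector receptor Klrg1 at least 12.1-fold, Gm43698 at least 10.8-fold and the cell cycle topoisomerase Top2a at least 7.44-fold. Of 10 naive markers 5 rose and none fell (median 0.40), of 11 helper genes 4 rose and none fell (0.45), of 10 CD8 and cytotoxic genes all 10 fell (-3.05), of 17 effector and memory genes 15 fell and none rose (-1.32), and of 7 inflammatory homing genes 5 fell and none rose. Of 8 myeloid markers 7 fell, of 5 B cell markers 4 fell and of 4 NK markers 4 fell. Of 34 interferon-stimulated genes 3 rose and 1 fell, and of 14 class I presentation genes none did.

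Between libraries, the members of the 3 treated libraries were each set against those of the untreated library, which the 3 comparisons therefore share. Of 540 genes with at least 200 UMIs over all members, 34 were more than 1.5-fold higher (6.30%) and 18 more than 1.5-fold lower (3.33%) in the anti-PD-L1 library, 42 higher (7.78%) and 27 lower (5.0%) in the anti-OX40/CpG library, and 30 higher (5.56%) and 26 lower (4.81%) in the PDOX library. The median ratio over all 540 genes was 1.01, 0.974 and 1.04, and 271, 234 and 307 of them had ratios above 1. Brackets after a ratio hold exact 95% intervals for counting error, and the same ratio in naive CD8+ T cells is given where it helps the reading.

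Interferon-stimulated genes were higher in the anti-PD-L1 library. All 8 genes of the list with enough UMIs had ratios above 1 there, 4 of them past 1.5, with a median ratio of 1.5, whereas the anti-OX40/CpG library had 5 of 8 above 1 and a median of 1.10, and the PDOX library 7 of 8 and 1.17. Ly6a, induced by interferons in T cells, was at 1.87 [1.18 to 2.80], 9.46, 5.52 and 8.49. Each treated library was above the untreated one, with ratios of 5.06 [3.29 to 8.14], 2.95 [1.88 to 4.83] and 4.54 [2.89 to 7.44]. Without the cell rich in Gsto1 the anti-PD-L1 level was 5.76 and its ratio 3.08 [1.97 to 5.02], and PDOX was then highest. In naive CD8+ T cells the ratios were 4.86, 2.63 and 5.07. Ifi27l2a was at 14.5, 26.7, 11.4 and 16.3, highest with anti-PD-L1 (ratio 1.84 [1.56 to 2.19]) and below the untreated level with anti-OX40/CpG (0.785 [0.645 to 0.957]). The GTPase Igtp, with 145 UMIs in all, was at 1.06, 2.44, 1.49 and 2.60, with ratios of 2.31 [1.26 to 4.59], 1.41 [0.724 to 2.93] and 2.46 [1.28 to 5.04]. Bst2 (tetherin) was at 2.93, 3.67, 1.85 and 2.46 and its ratios had intervals that included 1.

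Class I presentation genes were mostly above the untreated level too. Of 10 genes with enough UMIs, 10, 9 and 10 had ratios above 1 in the same 3 comparisons, with medians of 1.23, 1.17 and 1.26. The class Ib gene H2-Q7 was at 6.58, 11.5, 9.36 and 10.5, with ratios of 1.75 [1.37 to 2.27], 1.42 [1.10 to 1.86] and 1.59 [1.20 to 2.11]. The immunoproteasome subunit Psmb9 was at 2.36, 4.49, 3.26 and 4.07, with ratios of 1.91 [1.26 to 2.97], 1.38 [0.887 to 2.21] and 1.73 [1.09 to 2.80]. B2m was at 63.4, 76.3, 63.1 and 73.5, with ratios of 1.20 [1.11 to 1.31], 0.996 [0.911 to 1.09] and 1.16 [1.06 to 1.27]. The anti-PD-L1 and PDOX libraries were thus above the untreated and anti-OX40/CpG libraries for B2m, with naive CD8+ T cells at 66.9, 81.9, 68.4 and 77.0.

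Promoters of 3 of these genes are shown because they hold the letters of the interferon-stimulated response element, here searched as GAAA, any 2 bases and GAAA on both strands and set in capitals. The windows run from 250 bases before to 50 after the transcription start in RefSeq on GRCm38.p6, on the strand of the gene: chr11:58199306-58199605 (plus) for Igtp, chr2:122147437-122147736 (plus) for B2m and chr8:71537423-71537722 (minus) for Bst2, where 2 matches overlap.
Igtp: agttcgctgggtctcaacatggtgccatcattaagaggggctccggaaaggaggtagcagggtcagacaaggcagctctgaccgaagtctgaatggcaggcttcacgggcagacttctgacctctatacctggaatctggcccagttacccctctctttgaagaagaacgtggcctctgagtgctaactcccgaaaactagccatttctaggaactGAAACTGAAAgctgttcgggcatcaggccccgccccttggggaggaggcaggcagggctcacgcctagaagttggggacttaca
B2m: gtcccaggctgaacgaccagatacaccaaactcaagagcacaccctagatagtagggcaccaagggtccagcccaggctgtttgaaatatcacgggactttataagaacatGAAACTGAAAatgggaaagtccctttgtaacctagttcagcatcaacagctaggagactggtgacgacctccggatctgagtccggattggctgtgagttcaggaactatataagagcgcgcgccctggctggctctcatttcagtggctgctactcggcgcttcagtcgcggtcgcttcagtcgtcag
Bst2: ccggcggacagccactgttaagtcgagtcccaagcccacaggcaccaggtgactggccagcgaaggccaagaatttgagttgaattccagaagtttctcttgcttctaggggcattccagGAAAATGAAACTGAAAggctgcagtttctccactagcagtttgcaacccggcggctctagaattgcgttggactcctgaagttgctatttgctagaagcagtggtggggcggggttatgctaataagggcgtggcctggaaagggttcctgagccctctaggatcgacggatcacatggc
The motif was found in 1131 of 32851 promoter windows (3.44%). It was found in 19 of 38 windows of the interferon-stimulated list, belonging to 17 of the 29 genes with a window, in 3 of 14 windows of the class I list and in 0 of 12 of the immediate early list. A match describes the letters in the window only. Of the 3 genes shown, B2m and Bst2 read highest with anti-PD-L1 and Igtp in PDOX. Bst2 read lowest with anti-OX40/CpG, but the intervals of all 3 Bst2 ratios included 1. B2m with anti-OX40/CpG was level with the untreated library within counting error.

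**Figure D4:**
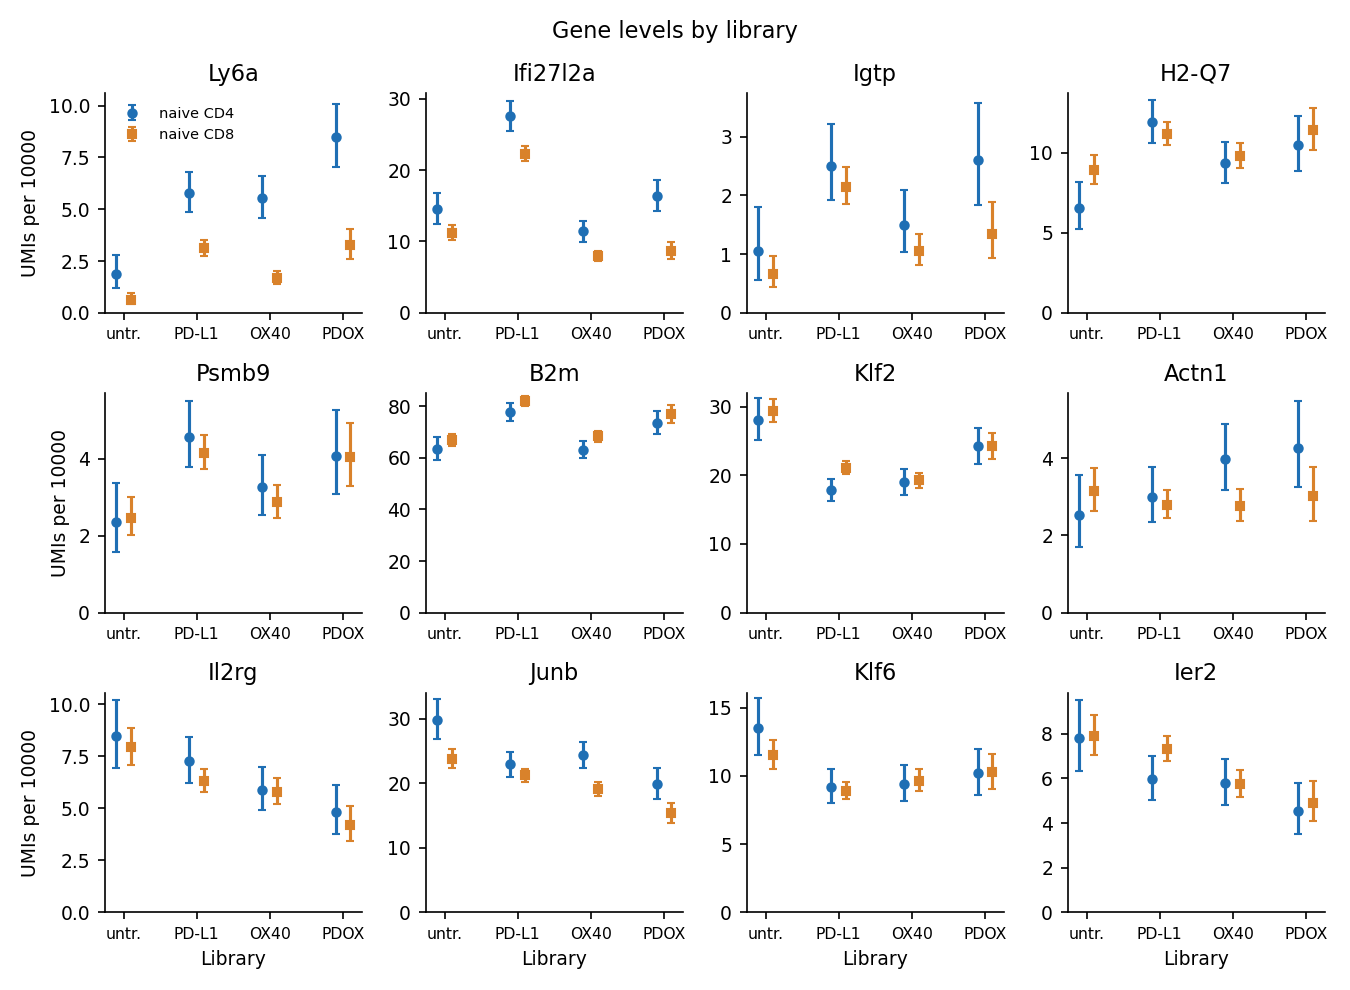
Level in UMIs per 10000 (y axis) by library (x axis) for 12 genes in naive CD4+ T cells without the cell rich in Gsto1 (circles) and in naive CD8+ T cells (squares), with exact 95% Poisson intervals. Ly6a is lowest in the untreated library in both subsets, and Junb is highest there in both, at 29.7 in naive CD4+ T cells.

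Naive markers differed in direction between libraries. Klf2 was at 28.0, 17.3, 19.0 and 24.2, with ratios of 0.617 [0.535 to 0.713], 0.676 [0.585 to 0.782] and 0.863 [0.741 to 1.01], and in naive CD8+ T cells at 29.4, 21.1, 19.3 and 24.2, so both subsets had the untreated library highest and PDOX next. Other naive markers moved less: Tcf7 was at 7.96, 7.33, 7.19 and 6.88 and Satb1 at 7.07, 6.62, 6.74 and 6.52. Actn1 went the other way, at 2.52, 2.92, 3.98 and 4.28, with ratios of 1.58 [1.04 to 2.46] and 1.70 [1.09 to 2.71] in anti-OX40/CpG and PDOX, against 0.874 and 0.954 in naive CD8+ T cells. Over the 9 naive markers with enough UMIs the median ratios were 0.937, 0.972 and 0.863. Il2rg, the common gamma chain of cytokine receptors, was at 8.45, 7.05, 5.88 and 4.84, lowest in PDOX.

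Immediate early genes, which respond within minutes to stimulation, were highest in the untreated members. None of the 7 genes with enough UMIs had a ratio above 1 in any treated library, and the medians were 0.782, 0.789 and 0.676. Junb was at 29.7, 23.3, 24.3 and 19.9, with ratios of 0.782 [0.685 to 0.893], 0.817 [0.714 to 0.935] and 0.668 [0.570 to 0.782]. Klf6 was at 13.5, 8.95, 9.41 and 10.2 and Ier2 at 7.80, 5.83, 5.79 and 4.56. Junb in naive CD8+ T cells was at 23.8, 21.2, 19.1 and 15.3, also highest in the untreated and lowest in the PDOX library.

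The effector and memory list held 7 genes with enough UMIs, of which 5, 5 and 6 had ratios above 1, with medians of 1.14, 1.07 and 1.10. Over all 540 genes, 271, 234 and 307 were above 1, with medians of 1.01, 0.974 and 1.04. Without the cell rich in Gsto1, 4 of the 7 were above 1 with anti-PD-L1, with a median of 1.07. S100a11 was 5.14 times the untreated level with anti-PD-L1, and 1.07 [0.630 to 1.86] without the cell rich in Gsto1. S100a10 went from 1.5 to 0.847 [0.663 to 1.09] in the same way. In PDOX, S100a10 was at 8.84 against 8.61 in the untreated library (1.03 [0.786 to 1.34]).

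The genes named by size of ratio were in part ones outside these lists. In PDOX the 8 highest included the respiratory chain genes Ndufv3 (1.95 to 4.07 from untreated to PDOX, ratio 2.09 [1.28 to 3.51]) and Cox14, the dNTP hydrolase Samhd1 (1.89), the endoplasmic reticulum chaperones Calr (1.81) and Pdia3 (1.73), the proteasome subunit Psma7 (1.78), Shfm1 and Mrpl23. The 8 lowest included Gm10076 (0.292), Gm10020, Ttc14, AY036118, the heat shock cochaperone Dnaja1 (0.545), Il2rg (0.573) and Smc4. These genes were picked as extremes of 540. In naive CD8+ T cells the same ratios of the 8 highest were only 0.918 (Samhd1) to 1.39 (Calr), with Ndufv3 at 1.08. Of the lowest, Gm10076, Gm10020, AY036118 and Il2rg were low there too (0.282 to 0.530). Dnaja1 was at 0.784, Ttc14 at 0.901 and Smc4 at 0.962. In the anti-PD-L1 library, beside Gsto1, S100a11 and Ly6a, the oligosaccharyltransferase subunit Ost4 was high (ratio 2.40 [1.47 to 4.10]), and Gm8797, Gm8730, Gm20186, Ptbp3 and Arhgdia were lowest. Gsto1 and S100a11 met the minimum UMI count only through the anti-PD-L1 cell rich in Gsto1. That cell held 538 of 611 Gsto1 UMIs and 186 of 343 S100a11 UMIs. In the anti-OX40/CpG library Gm10076 was highest (5.04 untreated, 40.1, ratio 7.96), with Gm10073, Gm2000 and Ly6a also among the 5 highest. The lowest were Gsto1, Gm8797, Gm8730, Gm20186 and Gm26917. Gsto1 was ranked here only because of the anti-PD-L1 cell. Its value rested on 1 UMI with anti-OX40/CpG against 10 in the untreated library (ratio 0.0557 [0.00128 to 0.391]). The same ratio of Gm10076 was 7.75 in naive CD8+ T cells, and Gm8730 went from 89.6 to 35.6 in naive CD4+ and from 111 to 42.7 in naive CD8+ T cells with anti-PD-L1, so these predicted genes moved with the library in both subsets.

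Depth and ribosomal content of the members differed from those of naive CD8+ and of effector/memory CD4+ T cells in each library. Median UMIs per cell were 1575, 1609, 1616 and 1390 in naive CD4+ T cells, 1606, 1775, 1742 and 1592 in naive CD8+ T cells and 1838, 1897, 2006 and 2033 in effector/memory CD4+ T cells. The members were lowest in 4 of 4 libraries, by a mean of 131 and 396 UMIs. With 4 libraries an exact two-sided sign-flip permutation test cannot go below 0.125, and gave p = 0.125 for both comparisons. The gate itself enters the contrast with effector/memory cells, since it separates the 2 groups by effector genes detected. Depth rose with that number, from a median of 1408 UMIs with 0 such genes to 2178 with 4 or more. That contrast is therefore not a separate property of the members. Naive CD8+ T cells met the same limit on effector genes. Ribosomal protein genes took 40.1%, 40.9%, 45.3% and 42.0% of all UMIs in the members, 44.3%, 45.7%, 48.2% and 45.5% in naive CD8+ T cells and 32.2%, 33.2%, 32.3% and 26.5% in effector/memory CD4+ T cells. The members thus lay between naive CD8+ and effector/memory CD4+ T cells in every library. The mean differences were -3.82 and 11 percentage points (exact permutation p = 0.125 for both, the smallest possible). Mitochondrial genes took 2.40% to 2.62%.

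**Figure D5:**
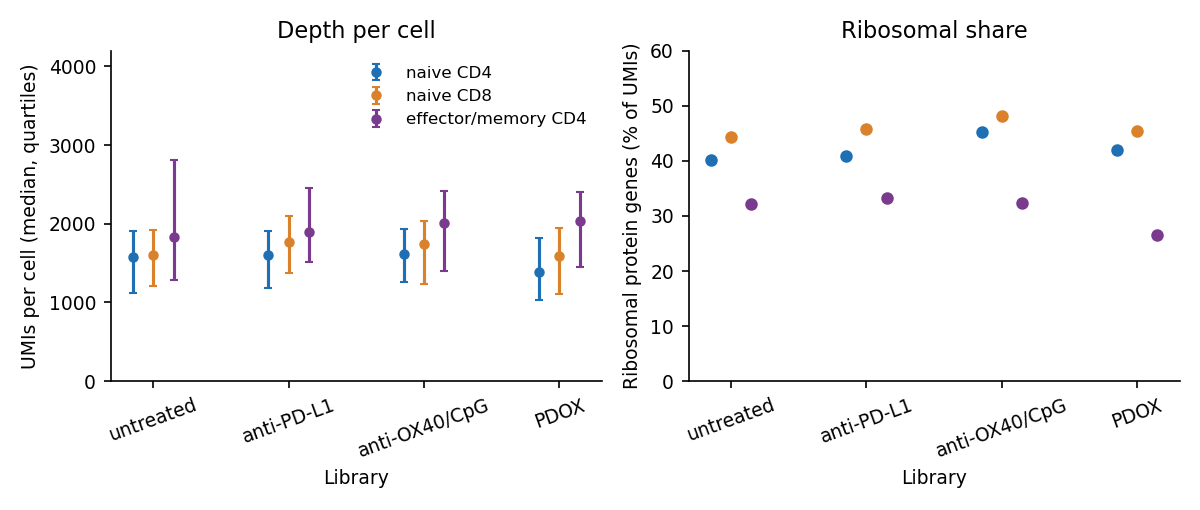
Median UMIs per cell with quartiles (left, y axis) and ribosomal protein genes as percent of UMIs (right, y axis) by library (x axis) for naive CD4+, naive CD8+ and effector/memory CD4+ T cells. The naive CD4+ points are lowest in depth in all 4 libraries, at 1390 to 1616 UMIs, and lie between the other subsets in ribosomal share. The limit of the gate on effector genes detected enters the depth contrast with effector/memory cells.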

How the data were processed

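The 4 libraries of blood T cells were made with Chromium single-cell 3′ chemistry. The authors deposited filtered UMI counts per gene and cell barcode, per the labels made on mm10 with Cell Ranger 2.1.1 (Seurat 2 is also named in the submitters' processing notes), for 862 untreated cells, 1451 cells of the anti-PD-L1 library, 1583 of anti-OX40/CpG and 1538 of PDOX (5434 in all, 2392650 to 4969885 UMIs per library). No values were normalized before deposit. Cells with 200 to 2900 genes detected were kept, not counting 109 ribosomal protein, 13 mitochondrial and 8 hemoglobin genes, which were also left out of levels and tests. The upper limit was the step against doublets, and no doublet caller was run.

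The members and gene lists were chosen with earlier results of these data known. UMIs were summed per library and subset and tested with edgeR 4.0.16 in R 4.3.3 (TMM, filterByExpr, quasi-likelihood, library as block, Benjamini-Hochberg), after the scripts were tested on simulated data. The 17 rule genes, which include all genes that define the gate, were left out of the tests. Each group is 1 library, so spread between mice was not measured, and intervals cover counting error only. Levels, shares and intervals were computed in Python 3.11.15 with scipy 1.17.1. Genes named were those of the lists, the 10 largest called increases and decreases shared by all 4 libraries against naive CD8+ and effector/memory CD4+ T cells (5 and 5 against other T cells), the 8 highest and 8 lowest ratios of PDOX over untreated with the same direction against all 3 other libraries, and the 5 highest and 5 lowest ratios for the other treatments, among genes with at least 200 UMIs. The genes of the cell rich in Gsto1 were named after their values were seen. Of the listed genes, Trac, Trbc1, Trbc2, Ifi206, Ifi209, Ifi213, Ighm, Ighd and most gamma-delta constant genes were not analysed here. Alternatives were DESeq2 1.42.0, DESeq2 size factors, no low-count filter, no library term, all genes kept, cells thinned to 750 UMIs, members without other-lineage UMIs, a stricter gate, and each library left out. Some items withheld for evaluation are not reported here.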

Additional observations from a re-analysis of the deposited data

Results flagged for a closer look

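Ribosomal protein genes, which were left out of the tests, took a larger share of all UMIs in the naive CD4+ T cells of each treated library than in the untreated library (40.1%): 40.9% with anti-PD-L1, 45.3% with anti-OX40/CpG and 42.0% with PDOX. These values were marked because they lie outside the main measurement and above the control sample. In naive CD8+ T cells the shares were 44.3% untreated and 45.7%, 48.2% and 45.5% in the same order, with anti-OX40/CpG highest in both subsets. With 1 library per group, no test between treatments was possible.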

How the results depend on the processing

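All genes called both in the main fit and under an alternative kept their direction, except 1 of 187 against naive CD8+ T cells without cells holding other-lineage UMIs. Against naive CD8+ T cells 379 genes were called, against 109 with DESeq2, 165 without the library term, 158 after thinning, 204 without other-lineage cells, 170 with the strict gate, and 230 to 348 when 1 library was left out (230 without anti-OX40/CpG). Against effector/memory CD4+ T cells the 276 calls became 120 with DESeq2, 145 after thinning, 156 with the strict gate, and 56 (without anti-OX40/CpG) to 374 (without untreated) when 1 library was left out. Removing other-lineage cells left 2 libraries there. Against the other T cells the 383 calls became 148 with DESeq2, 93 without the library term, 93 after thinning, 122 without other-lineage cells, 203 with the strict gate and 251 to 413 with 1 library left out. Thinning, the strict gate and removing cells leave fewer genes or cells to test, and the cause of the other changes was not tested. Calls that were higher in the members made up 47.8% against naive CD8+ T cells, 31.2% with DESeq2 and 36.7% without the low-count filter. Against the other T cells this was 33.2%, and 15.7% without the filter, 21.5% without the library term, 22.2% with the strict gate and 21.1% without anti-OX40/CpG. Without the filter the median log2 fold change of all genes was -0.10 and -0.26. The naive share among conventional CD4+ T cells was 42.4%, 32.5%, 18.8% and 13.6% with the strict gate. Genes past 1.5-fold numbered 52 for anti-PD-L1, 69 for anti-OX40/CpG and 56 for PDOX, in this order 18, 21 and 11 at a minimum of 500 UMIs and 13, 27 and 18 with the strict gate. For anti-PD-L1 there were 31 without other-lineage cells, and for anti-OX40/CpG 106 with all genes kept. Leaving out cells with 20 or more Gsto1 UMIs, an alternative chosen after seeing the data, gave 385, 313 and 377 calls and 43, 66 and 55 genes past 1.5-fold. Members numbering 81 to 161 per library limit the ratios of genes with few UMIs.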
